A study of Mus musculus with 6 samples.

Results

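C-type lectins, galectins and Siglecs are 3 large groups of animal proteins that read sugar chains, and their genes were followed here in denervated mouse gastrocnemius muscle. The genes were taken by name: every gene whose symbol begins with Clec, Lgals or Siglec and that at least 1 probe set of the array names alone. This rule gave 38 of the 17097 genes that could be followed, and each gene was read from its brightest probe set. The 38 were named by 53 probe sets. They are called lectin genes here by their symbols, although Lgals3bp encodes a protein bound by galectin-3 and Clec16a is a lectin by name only. Lgals8 is not among them because its probe sets also name Capn2.

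Olive skins contain the plant triterpene maslinic acid (MA), and the study compared mice fed MA with mice fed the plain diet to ask what MA does to muscle that has lost its nerve. The MA group received the AIN-93G diet with 0.27% MA and the control group the same diet without it. Mice of both groups were male Slc:ICR animals that arrived at 7 weeks of age, and in both groups the sciatic nerve was cut on either side after the diets had begun. Each group had 3 arrays, all of gastrocnemius RNA from day 14 after the cut, and no group with an intact nerve was on the arrays, so every difference below is between 2 denervated groups.

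A C-type lectin carries a fold that in many members binds sugar through calcium, and many members sit on macrophages, dendritic cells and natural killer cells, where they recognize fungi, bacteria, dead cells or other cells. Some activate the cell through the adaptors Fcer1g and Tyrobp and the kinase Syk, while others carry an inhibitory tail. Galectins bind galactose-bearing chains inside and outside the cell, and Siglecs bind sialic acid, most of them to hold immune cells back. In injured and denervated muscle galectin-1 is known mainly from muscle and connective tissue cells and galectin-3 mainly from macrophages.

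The values are log2 RMA values, in which 1 unit is a doubling, and a difference is always MA minus control on that scale. Levels of different probe sets cannot be ranked against each other, so only the same gene is compared between groups. Rose and fell are used for genes to which limma gave an adjusted p under 0.05 over all 45037 probe sets. The background level was 3.95, the highest value of the array's nonspecific-binding controls apart from 1 control of very high GC content. Of the 38 genes, 22 had a group mean above that level in both groups, 2 in 1 group and 14 in neither. The 14 are named below, but their values are near the floor of the measurement.

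Over all probe sets the correlation was 0.9992 to 0.9997 between arrays of 1 group and 0.9934 to 0.9937 between groups. The median SD within a group was 0.0365 over all probe sets and 0.0396 over the 38 genes. Whether each array of a group stands for its own mouse is not given in the sources used here. The p-values therefore cover the spread from array to array, which may be technical, and the number of arrays limits the precision. All 18 probe sets of the hybridization controls, spiked bacterial and phage transcripts, read higher on the MA arrays, with a median difference of 0.17 and a largest of 0.35, a 1.28-fold difference. Muscle fiber genes were bright on all arrays, and all 10 fiber markers followed lay above the background level.

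In the MA group 6 of the 38 lectin genes rose and 13 fell. The share that rose was 15.8%, beside 24.7% of all genes, and the share that fell was 34.2%, beside 23.0% of all genes. With a fold over 1.2 as well, 2 rose and 7 fell, 5.26% and 18.4%, beside 5.92% and 6.87% of all genes. Lgalsl and Clec11a were the 2 that rose past that fold, and Clec10a, Clec2d, Lgals3, Lgals3bp, Clec4e, Clec7a and Clec4a2 were the 7 that fell. The rises of Clec2h, Clec5a, Siglecg and Clec14a were smaller than the median difference of the hybridization controls, 0.17. So were the falls of Clec1a, Clec1b and Siglecf in size. The median difference was -0.05, beside 0.01 over all genes, with the extremes at -1.46 and 0.30. At 23 genes, 60.5%, the MA values and the control values did not overlap, beside 58.6% of all genes, so the groups separated at about the same share of the lectin genes as of all genes. These counts and medians are descriptions and carry no test of the list.

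**Figure D1:**
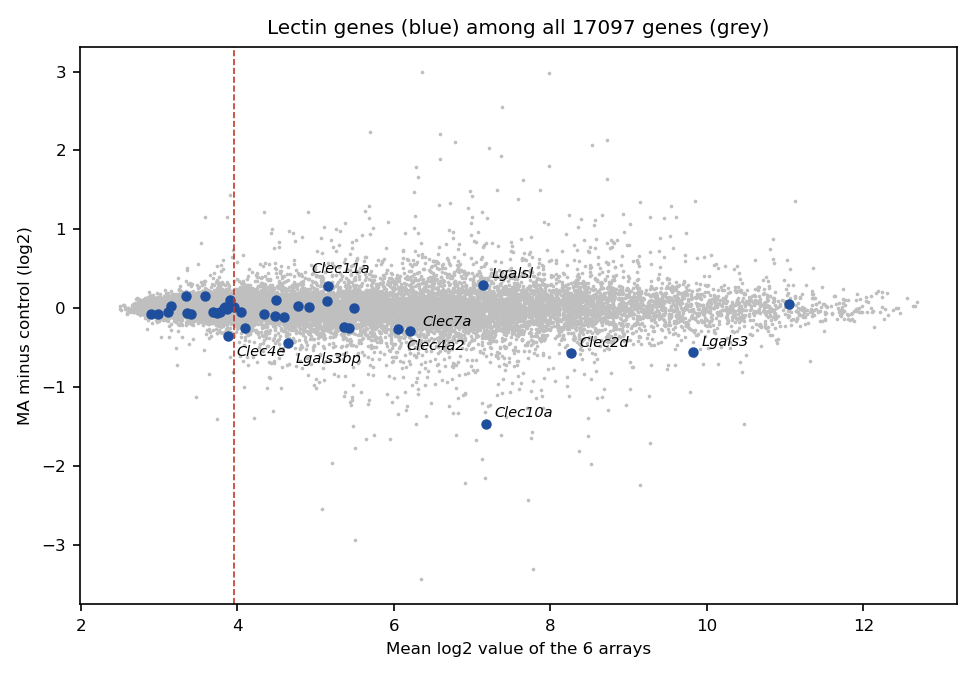
Each point is a gene read from its brightest probe set, with the mean log2 value of the 6 arrays on the horizontal axis and the difference MA minus control (log2) on the vertical axis; grey points are all 17097 genes, blue points the 38 lectin genes, and the dashed line is the background level of 3.95. Clec10a lies at -1.46, away from the other lectin genes, of which Lgals3 and Clec2d are the next lowest at -0.56 and -0.57 and Lgalsl the highest at 0.30.

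For the genes at the ends of this range, the promoter windows of RefSeq are shown beside the values. RefSeq windows of 300 bases (GRCm38.p6), 250 before to 50 after the start, were matched to 31 of the 38 genes. Clec10a has no entry. The windows below belong to the 2 genes that rose past 1.2-fold and to the 2 largest falls with an entry. They lie at chr14:47373610-47373909 on the plus strand for Lgals3, chr6:129180365-129180664 on the plus strand for Clec2d, chr11:20831059-20831358 on the minus strand for Lgalsl and chr7:44306910-44307209 on the minus strand for Clec11a, and all are printed in the sense of the gene. Capitals mark a match to the interferon-stimulated response element, searched as GAAANNGAA on both strands.
Lgals3: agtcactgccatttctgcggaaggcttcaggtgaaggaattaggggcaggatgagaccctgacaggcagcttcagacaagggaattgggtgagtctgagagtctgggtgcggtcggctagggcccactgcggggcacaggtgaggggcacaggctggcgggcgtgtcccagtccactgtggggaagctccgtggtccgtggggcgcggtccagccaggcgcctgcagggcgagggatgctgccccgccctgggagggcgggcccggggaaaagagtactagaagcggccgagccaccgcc
Clec2d: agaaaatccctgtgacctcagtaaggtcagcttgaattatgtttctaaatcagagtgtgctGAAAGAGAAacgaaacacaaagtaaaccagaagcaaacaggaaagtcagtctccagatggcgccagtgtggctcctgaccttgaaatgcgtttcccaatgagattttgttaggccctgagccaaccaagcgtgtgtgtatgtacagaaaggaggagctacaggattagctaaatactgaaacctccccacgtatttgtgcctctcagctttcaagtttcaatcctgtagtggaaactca
Lgalsl: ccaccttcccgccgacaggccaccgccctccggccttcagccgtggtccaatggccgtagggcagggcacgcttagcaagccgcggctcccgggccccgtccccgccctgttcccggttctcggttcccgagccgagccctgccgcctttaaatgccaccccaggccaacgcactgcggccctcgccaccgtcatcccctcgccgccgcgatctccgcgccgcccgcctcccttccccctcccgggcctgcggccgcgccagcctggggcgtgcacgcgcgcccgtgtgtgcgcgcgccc
Clec11a: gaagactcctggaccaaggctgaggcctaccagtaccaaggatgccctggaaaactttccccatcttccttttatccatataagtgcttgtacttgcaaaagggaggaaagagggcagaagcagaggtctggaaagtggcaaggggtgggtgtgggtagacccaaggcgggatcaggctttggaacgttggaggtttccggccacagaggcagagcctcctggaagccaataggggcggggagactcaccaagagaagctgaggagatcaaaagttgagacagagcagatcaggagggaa
The Clec2d window alone of the 4 holds that element, 189 bases before the start. Lgalsl has a CpG-rich window with 41 CpG pairs and Lgals3 has 18, beside 5 for Clec2d, 4 for Clec11a, a median of 4 over the lectin genes with a window and a median of 7 over all windows.

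The same 31 genes were searched for 5 motifs. The interferon element was present at 7 of them, 22.6%, beside 8.56% of all 32851 windows. The 7 were Clec12b, Clec2d, Clec2e, Clec2h, Clec4b1, Clec4d and Lgals9, of which Clec2d and Clec4d fell, Clec2h rose and the others did not pass the test. Several of the 7 are neighbours of one family, so they may not be independent matches. Likeness between the windows was not tested. The STAT motif TTCNNNGAA was found at 1 gene, Clec4a2, 3.23%, beside 8.3% of all windows. The NF-kB motif GGGNNTTCC was at 3 genes, Lgals9, Siglece and Siglecf, 9.68%, beside 5.82% of all windows. The AP-1 motif TGANTCA was at 5 genes, Clec18a, Clec2e, Clec2g, Clec2h and Clec4a2, 16.1%, beside 7.81%. The PU.1 motif GAGGAAGT was at none, beside 3.2%. All were searched on both strands, and the letters of the STAT and interferon motifs can overlap. A match describes these letters and is not a binding site.

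Clec10a encodes MGL1, a receptor of macrophages and dendritic cells for galactose and N-acetylgalactosamine, and it showed the largest difference of the 38 genes. Its log2 value was 6.41, 6.44 and 6.47 on the MA arrays and 7.91, 7.91 and 7.89 on the control arrays. The 3 MA arrays lay together well below the 3 control arrays, with no overlap. The difference was -1.46 (SE 0.0231, 95% interval -1.52 to -1.41, n = 3 per group), a 2.76-fold lower level, with an adjusted p of 2.78e-09 by limma. Its closest relative Mgl2, which encodes MGL2, moved the other way, by 0.10 (limma adjusted p = 0.0298), with values of 5.12, 5.06 and 5.10 in the MA group and 4.95, 5.05 and 4.99 in the control group. The measured differences of the MGL1 and MGL2 transcripts thus had opposite signs, although the lowest MA value of Mgl2 and its highest control value were nearly equal. The Mgl2 difference was also smaller than the median difference of the hybridization controls, 0.17.

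The galectins split into 1 that fell, 1 that rose and 6 that did not pass, with a median of 0.01. Each share was 12.5%, beside 23.0% of all genes that fell and 24.7% that rose. Lgals3 encodes galectin-3, known as Mac-2, an abundant product of activated macrophages. Its values were 9.56, 9.54 and 9.55 in the MA group and 10.11, 10.11 and 10.11 in the control group. The arrays of each group differed by no more than 0.02, and the difference between groups was -0.56 (SE 0.0201, limma adjusted p = 2.33e-07), a 1.47-fold fall. Lgals3bp, a secreted glycoprotein that binds galectin-3, fell by 0.44 as well (SE 0.0264, limma adjusted p = 4.54e-06), from 4.89, 4.84 and 4.85 in the control group to 4.40, 4.40 and 4.46 in the MA group. The galectin and its binding protein thus were both lower on every MA array than on any control array.

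Lgalsl encodes a galectin-related protein that lacks the usual binding of lactose, and it showed the largest rise of the 38. It had 7.30, 7.29 and 7.28 in the MA group and 6.97, 6.99 and 7.02 in the control group, a difference of 0.30 (SE 0.0223, limma adjusted p = 1.56e-05), 1.23-fold. The groups did not overlap, and its other probe set gave 0.27 (limma adjusted p = 5.07e-05). Lgals1, which encodes the galectin of muscle and connective tissue, had 11.09, 11.07 and 11.09 in the MA group and 11.03, 11.02 and 11.02 in the control group. Every MA array lay above every control array, yet the difference of 0.06 (95% interval 0.01 to 0.11) had an adjusted p of 0.0501 by limma and did not pass. Any difference in Lgals1 within that interval is far smaller than that of Lgals3. Lgals2 had 5.48, 5.49 and 5.51 in the MA group and 5.43, 5.54 and 5.51 in the control group, with overlap, and differed by 0.00 (95% interval -0.07 to 0.08). Lgals4 of gut epithelium, Lgals7 of skin, Lgals9 and Lgals12 of fat cells were under the background level in both groups, with differences from -0.06 to 0.01, and a second probe set of Lgals12 gave 0.12 (limma adjusted p = 0.00431).

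**Figure D2:**
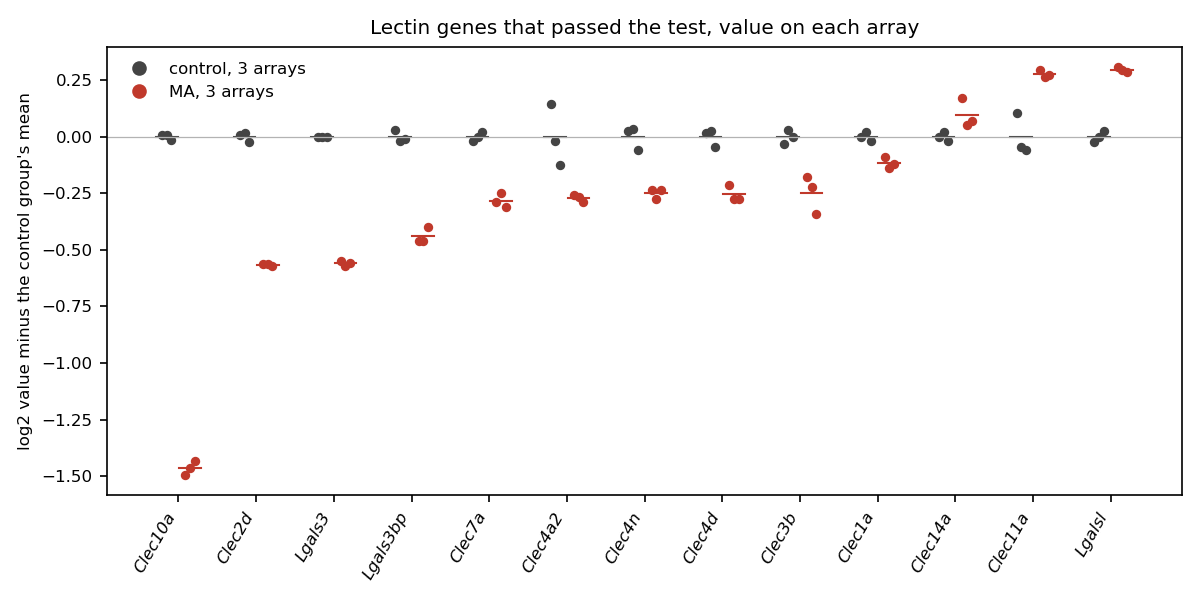
Each point is 1 array, 3 of the MA group (red) and 3 of the control group (grey), for the 13 lectin genes that passed the test and lay above the background level in both groups; the vertical axis is the log2 value minus the control group's mean of that gene and the short lines are group means. The Clec10a arrays of the MA group lie near -1.46, those of Clec2d and Lgals3 near -0.57 and -0.56, and the Clec4a2 controls spread widest.

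Among the Clec4 receptors that lie in a run on chromosome 6, 4 of 5 fell, with a median difference of -0.25. Their share was 80%, beside 23.0% of all genes. The run is Clec4b1, Clec4a2, Clec4n, Clec4d and Clec4e in RefSeq order (GRCm38.p6), and their neighbours Clec4a1, Clec4a3, Clec4a4 and Clec4b2 were not analysed here. Clec4n encodes Dectin-2, a receptor for fungal mannan, and had 5.32, 5.28 and 5.32 in the MA group and 5.58, 5.59 and 5.50 in the control group, a difference of -0.25 (SE 0.0312, limma adjusted p = 0.000305). Clec4d encodes MCL, a partner of Mincle, and had 4.01, 3.95 and 3.95 against 4.24, 4.25 and 4.18, a difference of -0.25 (SE 0.0283, limma adjusted p = 0.00017), with the MA arrays at the edge of the background. The probe sets of both are marked as able to match related transcripts, so signal of near relatives in them cannot be told apart from their own. The other probe set of Clec4n, under the background level in both groups, gave -0.36 (limma adjusted p = 0.000389).

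Clec4e encodes Mincle, a receptor for mycobacterial glycolipid and for products of dead cells. Its MA arrays, at 3.68, 3.73 and 3.69, were all under the background level, and its control arrays had 3.88, 4.11 and 4.16. The groups did not overlap, and the measured difference was -0.35 (SE 0.0631, limma adjusted p = 0.00253), but against the background level the fall was at least 1.07-fold. Its other probe set, under the background level in both groups, gave -0.03 (limma adjusted p = 0.54), and the mean of both probe sets gave -0.19. Clec4a2 encodes DCIR, an inhibitory receptor of the same run. It had 5.93, 5.92 and 5.90 in the MA group and 6.33, 6.17 and 6.06 in the control group, a difference of -0.27 (SE 0.0587, limma adjusted p = 0.00642). The control arrays of Clec4a2 lay farther apart than its MA arrays, and its other probe sets gave -0.17 (limma adjusted p = 0.00143) and 0.11 (limma adjusted p = 0.00847), so its direction depended on the probe set. Clec4b1 lay under the background level, with a difference of -0.07 that did not pass.

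The families Clec1, Clec2, Clec7 and Clec12, most of which share another stretch of chromosome 6, counted 11 genes. Of these, 4 fell, 1 rose and 6 did not pass, with a median of -0.06. The shares that fell and rose were 36.4% and 9.09%, beside 23.0% and 24.7% of all genes. Clec2d encodes Clr-b, the ligand by which healthy cells engage the inhibitory receptor Klrb1b of natural killer cells. Its values were 7.98, 7.98 and 7.97 in the MA group and 8.55, 8.56 and 8.52 in the control group. The groups were far apart against their spread, with a difference of -0.57 (SE 0.0217, limma adjusted p = 3.21e-07), a 1.48-fold fall. Klrb1b itself had 3.94, 3.91 and 3.91 in the MA group, under the background level, and 4.01, 4.15 and 4.20 in the control group, at least 1.13-fold lower in the MA group (limma adjusted p = 0.00763). Its probe set is 1 of those that may match relatives.

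Of the 6 relatives of Clec2d none fell, though Clec2i did with array weights and without control replicate 1. Clec2e had 5.19, 5.17 and 5.22 in the MA group and 5.17, 5.12 and 5.01 in the control group, a difference of 0.09 that did not pass (limma adjusted p = 0.0972), and Clec2l had 4.94, 4.88 and 4.94 in the MA group and 4.93, 4.89 and 4.91 in the control group, a difference of 0.01. The groups of Clec2l overlapped and those of Clec2e met at 5.17. Clec2g, Clec2i and Clec2m, under the background level, had -0.08, -0.05 and 0.02 and did not pass. Clec2h, also under that level and read by a probe set that may match relatives, had 0.16 (limma adjusted p = 0.0172). Its other probe sets gave 0.01 and -0.01 (limma adjusted p = 0.704 and 0.865), and with the mean of its probe sets it did not pass (0.05, limma adjusted p = 0.164).

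Clec7a encodes Dectin-1, the receptor for fungal beta-glucan. It had 6.06, 6.10 and 6.04 in the MA group and 6.33, 6.35 and 6.37 in the control group, with no overlap and a difference of -0.29 (SE 0.0243, limma adjusted p = 3.34e-05), 1.22-fold. Clec1a, found on dendritic cells and endothelium, fell by 0.12 (SE 0.0234, limma adjusted p = 0.00407), from 4.65, 4.67 and 4.63 to 4.56, 4.51 and 4.53, while its other probe set gave 0.00. Clec1b encodes CLEC-2, the platelet receptor for podoplanin, and had -0.06 (limma adjusted p = 0.0383) under the background level. Clec12b, an inhibitory receptor, had 4.28, 4.29 and 4.34 in the MA group and 4.34, 4.41 and 4.37 in the control group, a difference of -0.07 that overlapped and did not pass (limma adjusted p = 0.0835).

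**Figure D3:**
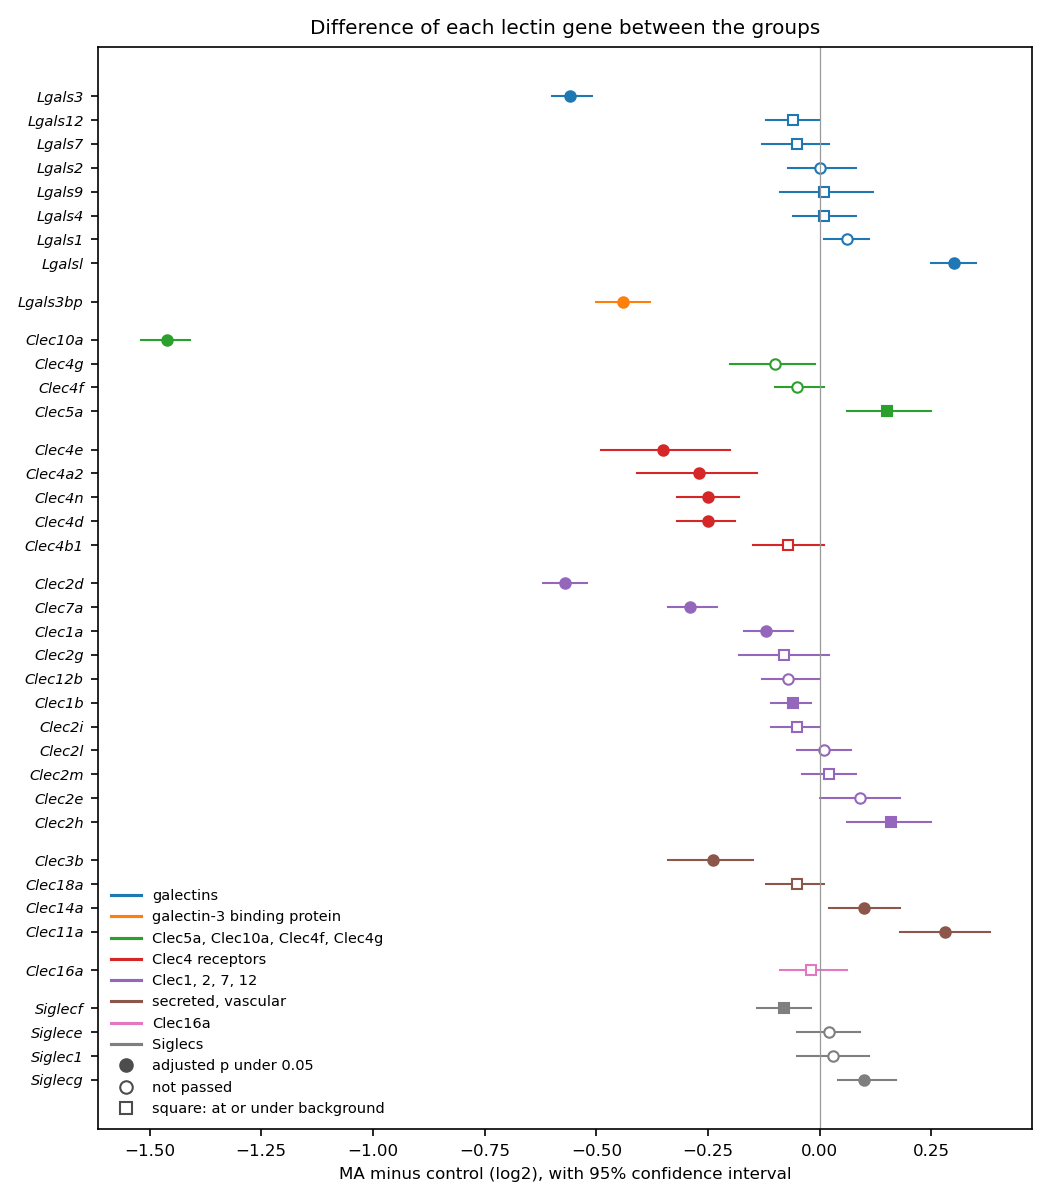
Each marker is the difference MA minus control (log2) of 1 of the 38 lectin genes with its 95% confidence interval from limma, grouped and coloured by role; filled markers had an adjusted p under 0.05, open markers did not pass, and squares lay under the background level in both groups. Of the Clec4 receptors of the chromosome 6 run 4 of 5 are filled and left of 0, and the Siglecs lie between -0.08 and 0.10.

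The remaining receptors gave smaller values. Clec5a encodes MDL-1, a myeloid receptor that pairs with Tyrobp, and had 0.15 (limma adjusted p = 0.014) under the background level. Clec4f, known from Kupffer cells of the liver, had 4.04, 4.02 and 3.99 in the MA group and 4.05, 4.07 and 4.08 in the control group, a difference of -0.05. Clec4g, known from liver sinusoids, had 4.51, 4.40 and 4.37 in the MA group and 4.59, 4.52 and 4.48 in the control group, a difference of -0.10 (95% interval -0.20 to -0.01, limma adjusted p = 0.0828). Neither passed, and the Clec4g groups overlapped. Clec16a, which acts in mitophagy and is a lectin by name only, had -0.02 under the background level.

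Secreted and vascular members went both ways. Clec11a encodes a secreted growth factor of bone marrow and bone, also called osteolectin. It had 5.31, 5.28 and 5.29 in the MA group and 5.12, 4.97 and 4.96 in the control group, a rise of 0.28 (SE 0.0428, limma adjusted p = 0.00101), 1.21-fold, with no overlap. Clec3b encodes tetranectin, a secreted protein that binds plasminogen, and had 5.31, 5.27 and 5.15 against 5.46, 5.52 and 5.49, a fall of 0.24 (SE 0.0408, limma adjusted p = 0.00171). These 2 secreted lectins therefore differed in opposite directions. Clec14a, an endothelial receptor, had 4.61, 4.49 and 4.51 against 4.44, 4.46 and 4.42, a difference of 0.10 (limma adjusted p = 0.0489), and its other probe set, under the background level, gave -0.08. Clec18a had -0.05 under the background level and did not pass.

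Siglecs showed differences from -0.08 to 0.10, the narrowest range of the families with more than 1 gene. Siglec1, the sialoadhesin of tissue macrophages, had 4.83, 4.74 and 4.80 in the MA group and 4.70, 4.80 and 4.77 in the control group. The groups overlapped and the difference of 0.03 (95% interval -0.05 to 0.11) did not pass, while its other probe sets gave 0.05 and 0.12, the last with an adjusted p of 0.0305 by limma. Siglece of myeloid cells had 4.02, 3.96 and 3.93 in the MA group and 3.99, 3.92 and 3.95 in the control group, an overlap with a difference of 0.02. Siglecg, an inhibitory receptor of B cells, had 3.96, 3.95 and 3.97 in the MA group and 3.91, 3.84 and 3.82 in the control group, a difference of 0.10 (limma adjusted p = 0.0195) at the edge of the background, and Siglecf of eosinophils had -0.08 (limma adjusted p = 0.0282) under it. Cd22, Cd33 and Mag, Siglecs named otherwise, had 0.00, 0.06 and 0.04, and none of the 3 passed.

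Genes that are lectins or work with lectins under other names were counted from lists. Of 24 further C-type lectin receptors of immune cells 3 rose and 7 fell, 12.5% and 29.2% beside 24.7% and 23.0% of all genes, with a median of 0.00. Cd209f fell by 0.42, Mrc1, the macrophage mannose receptor, by 0.39 and Cd209g by 0.35 (limma adjusted p from 6.02e-06 to 4.23e-05), and Cd302 had 0.07 and did not pass. Cd209d had 0.35 (limma adjusted p = 0.000177) under the background level in both groups. Of 21 other proteins with a C-type lectin or link domain 5 rose and 2 fell, with a median of 0.05. These were 23.8% and 9.52%, beside 24.7% and 23.0% of all genes. This list was named for stroma, matrix and vessels but also holds genes known from liver, lung and brain. In both groups 8 of its genes were under the background level. Vcan, the matrix proteoglycan versican, rose by 0.76 (limma adjusted p = 8.44e-07), Thbd, thrombomodulin, fell by 0.38 (limma adjusted p = 0.000546) and Chodl had -0.06 and did not pass. Mrc1 is also one of the macrophage markers below. Of the selectins Selp rose by 0.11 (limma adjusted p = 0.00528), and Sele had 0.11 under the background level.

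The signaling genes of the receptors numbered 19, of which 4 rose and 9 fell, with a median of -0.06. These were 21.1% and 47.4%, beside 24.7% and 23.0% of all genes. Fcer1g, the adaptor of Dectin-2, Mincle and MCL, had 5.45, 5.57 and 5.59 in the MA group and 6.22, 6.31 and 6.24 in the control group, a fall of 0.72 (limma adjusted p = 2.99e-06). Tyrobp, the adaptor of MDL-1, fell by 0.54 (limma adjusted p = 4.21e-06), from 7.36, 7.42 and 7.35 to 6.80, 6.81 and 6.89. Bcl10, which relays the signal of Dectin-1 toward NF-kB, fell by 0.33 (limma adjusted p = 2.21e-05). The measured falls of both adaptors were larger than those of Clec4n, Clec4d, Clec4e and Clec7a, but the sizes were not tested against each other. Syk, the kinase they recruit, had 0.02 under the background level, and Nfatc2 had -0.06 and did not pass.

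Enzymes that make the sugars went both ways. Of 30 genes of sialic acid synthesis, transfer and removal 12 rose and 10 fell, with a median of 0.02. These were 40% and 33.3%, beside 24.7% and 23.0% of all genes. The polysialyltransferases moved in opposite directions, with St8sia2 up by 0.56 (limma adjusted p = 8.58e-07) and St8sia4 down, at -0.56 (limma adjusted p = 9.04e-07), and St3gal5, which makes the ganglioside GM3, rose by 0.47 (limma adjusted p = 4.6e-06). Of 21 genes of galactose transfer and N-glycan branching 2 rose and 9 fell, 9.52% and 42.9%, with a median of -0.02. B4galt5 fell by 0.73 (limma adjusted p = 2.53e-06) and Mgat4b by 0.51 (limma adjusted p = 8.31e-07), and C1galt1, which builds the core of O-glycans, rose by 0.37 (limma adjusted p = 1.98e-05).

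Of 14 genes for proteins known to be bound by these lectins 6 rose and 5 fell, with a median of 0.05. These were 42.9% and 35.7%, beside 24.7% and 23.0% of all genes. Ptprc (CD45), a galectin ligand of leukocytes, fell by 1.33 (limma adjusted p = 3.94e-09), whereas Fn1, fibronectin, rose by 1.13 (limma adjusted p = 8.46e-09) and Cd24a, a ligand of Siglec-G, rose by 0.83 (limma adjusted p = 4.96e-07). The named ligands thus differed in direction. Pdpn, podoplanin, the ligand of CLEC-2, rose by 0.40 (limma adjusted p = 2.71e-05), and Itgb1, a galectin-binding integrin, had 0.05 and did not pass.

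**Figure D4:**
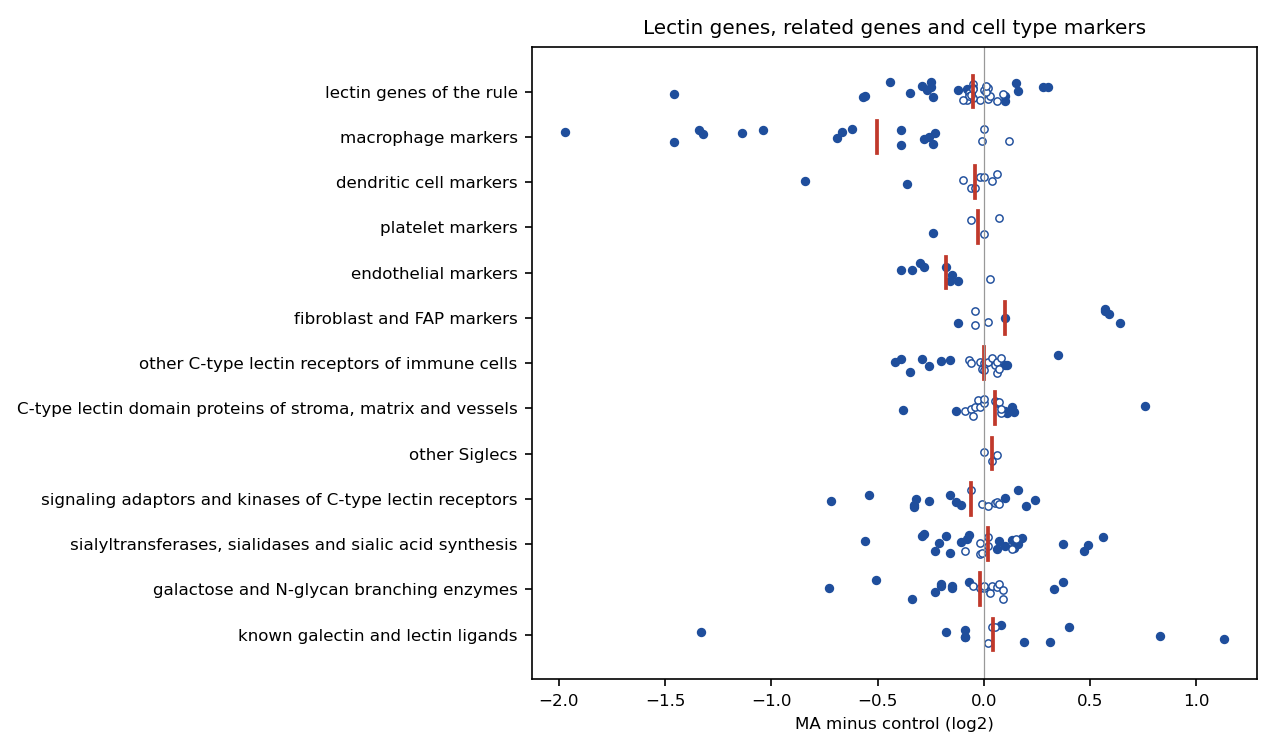
Each point is a gene, placed by its difference MA minus control (log2) in the list named on the left; filled points had an adjusted p under 0.05 by limma, open points did not pass, and the red line is the median of the list. The macrophage markers have a median of -0.51 and none to the right of 0 passed, the endothelial markers a median of -0.18, and the lectin genes one of -0.05.

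Markers of the cells that carry these receptors differed between the groups as well. Of 18 macrophage markers 15 fell and none rose, with a median of -0.51. The share that fell was 83.3%, beside 23.0% of all genes. The summed linear level of these markers was 2030 to 2080 on the MA arrays and 3470 to 3550 on the control arrays. Aif1 fell by 1.97, C1qb by 1.46 and Cd163 by 1.34 (limma adjusted p from 2.02e-09 to 2.46e-08). Cd68, Cx3cr1 and Itgam did not pass, and Itgam and Timd4 lay under the background level in both groups. The part of the macrophage markers in the falls of Clec10a, Lgals3 and the Clec4 receptors was not tested, and in RNA of whole muscle fewer cells of a type and less RNA per cell cannot be told apart.

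Markers of other cell types were counted in the same way. Over all genes 24.7% rose and 23.0% fell. Of 9 dendritic cell markers 2 fell (sum 219 to 225 in the MA group, 253 to 255 in the control group), and of 4 platelet markers Pf4 fell, by 0.24 (sum 175 to 180, 196 to 201). These shares, 22.2% and 25%, were near that of all genes. The dendritic cell sum held Irf8, which fell by 0.84 and is also counted among the interferon gamma genes below. Pf4 was the brightest platelet marker and weighed most in that sum. Of 9 endothelial markers 8 fell and none rose, with a median of -0.18 (sum 270 to 277, 308 to 327). Clec14a had a difference of 0.10 (limma adjusted p = 0.0489), but kept its call in only 5 of 15 settings. Its other probe set, under the background level, gave -0.08. Of 9 fibroblast and fibro-adipogenic progenitor markers 5 rose and 1 fell (sum 5610 to 5630, 4720 to 4800), and of 8 tendon and cartilage markers 6 rose (sum 902 to 924, 500 to 507). The bright Col3a1, which rose by 0.57, weighed heavily in the fibroblast sum, while 3 of the 9 markers, among them Dcn, did not pass. Of T and NK cell markers 1 rose and 5 fell of 9 (sum 179 to 184, 189 to 194), of B cell markers 2 rose of 5 (119 to 120, 108 to 116), of neutrophil markers 2 rose and 1 fell of 9 (251 to 254, 210 to 217) and of eosinophil and mast cell markers 3 rose and 1 fell of 9 (119 to 123, 117 to 119). Of 4 adipocyte markers 3 rose and 1 fell (2190 to 2220, 2460 to 2500). Of 6 satellite cell and myoblast markers 2 rose and 4 fell (1830 to 1900, 2070 to 2110), and of 10 fiber markers 5 rose (43200 to 43400, 40500 to 40600). The neutrophil sum followed S100a8, which rose by 0.65, while 6 of the 9 neutrophil markers did not pass. The adipocyte sum followed its brightest gene, Fabp4, which fell by 0.22, while Adipoq rose by 0.64. The part of these cell types in the lectin results was not tested.

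Receptors and response genes of interferon gamma were mostly lower in the MA group, with 7 of 9 falling and a median of -0.84. That share was 77.8%, beside 23.0% of all genes. The summed linear level of these genes was 454 to 477 in the MA group and 1150 to 1160 in the control group. Cxcl9, a chemokine, fell by 3.43 (limma adjusted p = 4.19e-10), from 8.07, 8.07 and 8.06 to 4.71, 4.63 and 4.56. Lgals9, which interferon gamma is known to induce, had 0.01 (95% interval -0.09 to 0.12) at a level under the background, so a change in it could not be read at this signal.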

How the data were processed

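Gastrocnemius RNA was measured on Affymetrix GeneAtlas mouse array strips, 3 arrays per group. For labelling, the authors used a kit primed at the 3' end, and RMA was run in Expression Console (version not given in the sources used here). The deposited values are log2 RMA values, 1 per probe set, background-corrected and quantile-normalized by the authors, and were used as deposited. RMA sets the arrays to 1 distribution, so a change shared by most transcripts would not be seen. The design text names a human array, but the methods and the probe sets point to the mouse array.

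In R 4.3.3, limma 3.58.1 (lmFit, eBayes, no covariate) was fitted to the 45037 probe sets left after 104 controls, with Benjamini-Hochberg adjustment over all of them. Platform annotation named 1 gene for 28898 of these, several for 551 and none for 15588. All 38 symbols matched RefSeq (GRCm38.p6). Of 17097 genes, 4755 (27.8%) had both group means at or under the background level of 3.95. The highest nonspecific-binding control, of 25 G or C bases (7.11 to 7.33), was set aside after its values were seen and is used as an alternative. Where a gene was under the level in 1 group, the fold was bounded at that level. Summed levels are sums of 2 to the power of the log2 values. The brightest probe sets weigh most in them, so a sum is not a level of a cell type.

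The rule for values by array took members with an adjusted p under 0.05, above the level in at least 1 group and not overlapping, with those above it in both groups that did not pass given more briefly. Of each list the 3 largest differences that passed, above the level in both groups, and the brightest gene that did not could be named. Mgl2, Klrb1b, Cd209d, Pdpn, Syk, Sele, Cd33, Mag, Cx3cr1, Itgam and Timd4 lie outside it and were given for what they encode, after their values were seen. The members and all lists were chosen with earlier results of these data known. After the values were seen, 4 genes were taken off 2 lists because they are not lectins or known ligands (Prg4, Sap130, Cd177, Hmgb1). The fit was tested on simulated data. Authors' comparisons and qPCR were not used here.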

Additional observations from a re-analysis of the deposited data

How the results depend on the processing

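No member that passed the test changed sign under any of 15 settings. The eBayes variants, the one-way test, the dim filter and the replicate block reuse the same difference, so its sign could not change there. A single other probe set of a gene was not a setting. Such probe sets of Clec4a2 (0.11), Clec14a (-0.08) and Clec2h (-0.01) had the opposite sign, while those of Lgalsl, Clec4n and Clec4e kept it. Of 556 pairs of a member and a setting, 506 kept the call, 33 lost it and 17 gained it, and 23 of 38 members had the same call in all. The settings were eBayes with a trend or robust, the one-way test of the methods after Benjamini-Hochberg, normalization again, centring, a filter on dim probe sets, array weights, the mean of a gene's probe sets, a replicate block and leaving out each array. The counts of 6 members higher and 13 lower became 2 and 7 by the one-way test with the thresholds of the methods, p under 0.05 unadjusted and fold over 1.2 (4633 in place of 19331 probe sets), 3 higher by that test after Benjamini-Hochberg, where Clec4a2 was lost (adjusted p = 0.0699), 2 and 7 at an adjusted p and a fold over 1.2 (4633 probe sets), and 0 and 1 at a fold over 1.5 (979). At a fold over the largest hybridization control, added after the data were seen, they were 0 and 4 (2766). The filter on dim probe sets moved the median difference of -0.054 to -0.087 over 24 members, and a filter at the control of 25 G or C, also added after the data were seen, left 4 members, 1 higher and 3 lower, a median of -0.563 and 5301 probe sets called. Leaving out 1 array gave 3 to 6 members higher, with 3 without MA replicate 3, where Clec14a, Clec5a and Siglecg were lost, 11 to 14 lower, medians of -0.058 to -0.043 and 15626 to 19388 probe sets. Of the members described as having passed, Clec14a was lost in 10 settings, among them 5 that leave out an array, and Clec1b, Siglecf, Siglecg, Clec5a and Clec2h, all near or under the background level, in at least 1 that leaves out an array. Lgals1, at an adjusted p of 0.0501, passed in 6. With the replicate number as a block (replicate block), 6 members were higher and 14 lower, Clec1b was lost and Clec4b1 and Clec4g were gained. Deviations of same-numbered arrays correlated at 0.19, 0.04 and 0.14. The same number was the best match for MA replicates 1 and 3, while MA replicate 2 correlated best with control replicate 3 (0.07). These few values cannot settle whether the numbers are pairs, and the main fit did not take them as pairs. The mean of a gene's probe sets gives no count of probe sets over the whole table. Signal near the background limits 14 of the 38 members.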

Other observations

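Lgals8, which encodes a galectin with a pair of binding domains, could be followed only through probe sets that also name Capn2, the large subunit of calpain 2, so their values belong to either gene. The first had log2 values of 6.31, 6.30 and 6.26 in the MA group and 6.11, 6.15 and 6.17 in the control group, a difference of 0.14 (SE 0.0256, limma adjusted p = 0.00235). The second had 8.16, 8.21 and 8.20 against 8.22, 8.23 and 8.22, a difference of -0.03 that did not pass (limma adjusted p = 0.251). Of the 2 probe sets the first alone passed the test.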
